A study of Mus musculus with 8 samples.

Results

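Messenger RNA levels of the proteasome subunits and their assembly factors were followed in mouse CD4+ T cells before and after stimulation through the T cell receptor. The genes were taken by symbol: every gene of the deposited table whose symbol is Psma to Psmg followed by a digit, 49 of 27179 genes. Of these, 48 encode parts, caps, inhibitors or assembly factors of the proteasome. The remaining one, Psmc3ip, shares the letters only and encodes a recombination factor. It is left out of all counts below except those that are given for all 49.

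The proteasome degrades proteins that carry ubiquitin. Its barrel-shaped core is built of rings of alpha and beta subunits, and the beta subunits Psmb5, Psmb6 and Psmb7 hold the cutting sites. In lymphocytes and in cells exposed to interferon, Psmb8, Psmb9 and Psmb10 are built in place of Psmb5, Psmb6 and Psmb7, respectively, which gives the immunoproteasome, known for cutting peptides that suit loading onto MHC class I. A regulatory cap on the ends of the core recognises ubiquitin, unfolds the substrate with a ring of ATPases and feeds it in, while other caps (Psme1 to Psme4) open the core without recognising ubiquitin.

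The cells were CD4+ T cells from the spleens of 8 week old C.Cg-Foxp3tm2Tch/J mice, a strain that carries a reporter at Foxp3, enriched by negative selection and then sorted. For control offspring, the study describes the sequenced cells as conventional T cells, CD4+CD25-. All mice were offspring of breeding pairs given either plain water (control offspring) or water with 10 ppm CdCl2 around mating and through pregnancy (Cd offspring), and all had plain water after birth. Cells were taken without culture (0 h, unstimulated) or after 16 h with anti-CD3/CD28 beads (stimulated), so the effect of the beads cannot be told apart from that of 16 h in culture. Each of the 4 groups has 2 libraries, numbered 6 and 7, the labels do not say which come from 1 animal, and the p-values below measure only the spread between these libraries. All 8 libraries expressed the 8 T cell markers checked, Cd4 among them, and the B cell gene Ms4a1, S100a8 of myeloid cells and Siglech of plasmacytoid dendritic cells were at 0 in every library. Of the 2 CD8 T cell markers, Cd8a stayed below 1 RPKM but Cd8b1 stood at 9.40 to 11.7 RPKM, and the pair summed to 9.52 to 10.7 RPKM before and 10.3 to 11.8 RPKM after stimulation. The summed level of the 4 NK cell markers was 5.31 to 7.0 RPKM before and 1.63 to 2.3 RPKM after stimulation, and that of the 6 myeloid markers was 6.23 to 7.83 and 3.21 to 4.31 RPKM. The 5 B cell markers summed to 3.12 to 3.76 and 4.19 to 4.89 RPKM, nearly all of it Cd79a, and the 4 dendritic markers to under 1 RPKM throughout. The 8 T cell markers themselves summed to 2128 to 2289 RPKM before and 1497 to 1546 RPKM after stimulation. The summed level of the 4 markers of regulatory T cells was 14.9 to 19.2 RPKM before and 140 to 173 RPKM after stimulation, most of it from Il2ra, which conventional T cells also switch on. The part of these markers in the results below was not tested. The 6 genes checked for activation were higher after stimulation in both kinds of offspring.

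Levels are given as RPKM, reads scaled by the length of the transcript and by the reads counted in the library. Levels of different genes may be set side by side only roughly. Limits for genes with copies elsewhere in the genome or with overlapping genes are given below. Of the 48 proteasome genes, 46 passed the filter for testing, a mean of at least 0.5 RPKM over the 8 libraries. The other 2 are subunits known from single tissues. Psma8, an alpha subunit of the testis, had 0 to 4 reads a library, and Psmb11, a catalytic subunit of the thymus cortex, had 0 to 16 reads. The 46 tested genes had 92 to 12141 reads in a library, among 15542732 to 25486791 reads counted on genes. The proteasome genes together took 0.309% to 0.320% of the reads of unstimulated libraries and 0.564% to 0.583% of those of stimulated ones. These are shares of the RNA of a library, and in bulk samples fewer cells of a type and less RNA per cell cannot be told apart.

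The first question was how the set responded to stimulation. In control offspring, 22 of the 46 genes rose at an adjusted p under 0.01 and a change of more than 2-fold, and none fell, while 11.5% of all 12605 genes tested rose and 7.17% fell (limma on log2(RPKM + 0.1), Benjamini-Hochberg adjustment). These are 2 of the thresholds that the study set in edgeR for noncoding RNAs, taken without its further limit on expression, and are called the 2-fold rule below. At an adjusted p under 0.05 and any size, 41 rose, 3 fell and 2 did not pass, against 36.9% and 27.8% of all genes. The 3 genes that fell were Psmb8, Psmb9 and Psmb10, the 3 catalytic subunits of the immunoproteasome, and the 2 that did not pass were Psmd5 and Psmf1. Over the 46 genes the log2 fold change had a median of 0.99, against 0.07 over all those tested. Under quantile normalization the median of all genes was -0.03, a shift of just over 0.1 on the log2 scale, and the fold changes here are to be read against it.

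In Cd offspring, whose 4 libraries are separate from those of the controls, 25 of the 46 genes rose by the 2-fold rule and none fell, against 11.4% and 7.24% of all genes. At an adjusted p under 0.05, 42 rose and the same 3 fell, against 36.5% and 29.4%, and Psmd5 alone did not pass. The sign of the fold change was the same in both kinds of offspring for 46 of 46 genes, and at an adjusted p under 0.05, 41 rose in both (32.2% of all genes) and 3 fell in both (23.7%). Every stimulated library lay above every unstimulated one for 42 genes in control offspring (46% of all genes) and for 42 in Cd offspring (44.7%), and below for 3 genes in each (37.2% and 38.4%). The 22 genes called in controls were all called in Cd offspring. The 3 called by the 2-fold rule in Cd offspring only lay at the 2-fold line, a log2 fold change of 1: Psmb3 had 0.90 in control and 1.01 in Cd offspring, Psmb7 had 0.92 and 1.01, and Psmg1 had 0.996 and 1.04. Under quantile normalization 17 genes passed the 2-fold rule in control offspring (16 rose, 1 fell) and 14 in Cd offspring (13 rose, 1 fell). The gene that fell in both was Psmb10, at -1.0 and -1.1. The share of all genes that passed under this normalization is not given here. Whether the lower counts are particular to proteasome genes was not tested.

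**Figure D1:**
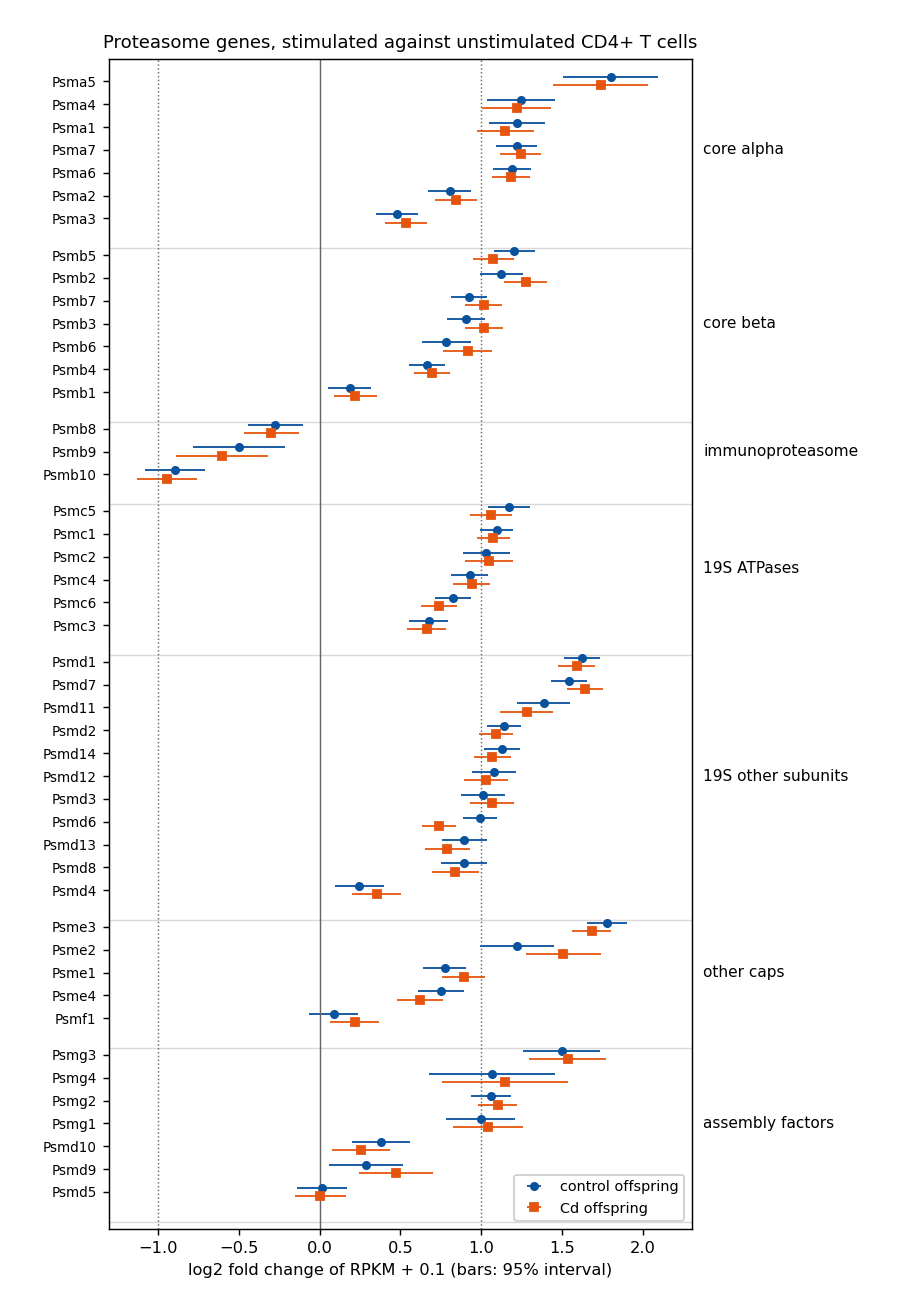
Log2 fold change of RPKM + 0.1 between stimulated and unstimulated cells for the 46 tested proteasome genes, by class, in control (circles) and Cd offspring (squares), with 95% intervals from limma and dotted lines at 2-fold. The points of both kinds of offspring run together, most lie between 0.5 and 2, and the 3 immunoproteasome subunits lie below 0.

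The alpha subunits form the outer rings of the core and its gate. All 7 tested alpha subunits rose at an adjusted p under 0.05 in both kinds of offspring, 5 of them by the 2-fold rule, with a median log2 fold change of 1.22 in control and 1.18 in Cd offspring. Psma5 rose most and was the lowest of them at rest. It stood at 6.35 and 7.41 RPKM in unstimulated and 22.8 and 25.6 RPKM in stimulated control cells, and at 5.88 and 7.44 against 22.6 and 22.0 RPKM in Cd offspring. The groups were far apart, with log2 fold changes of 1.80 (SE 0.13, limma adjusted p = 1.21e-05) and 1.74 (adjusted p = 1.51e-05). Psma3 rose least, from 20.6 and 21.1 to 29.4 and 28.8 RPKM in control cells and from 19 and 20.2 to 29.0 and 27.8 RPKM in Cd offspring, log2 fold changes of 0.48 (adjusted p = 0.000164) and 0.54 (adjusted p = 8.97e-05 by limma). Between them lay Psma1, Psma4, Psma6 and Psma7, at 1.15 to 1.25 in both kinds of offspring, and Psma2, at 0.80 and 0.84.

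Of the constitutive beta subunits, which form the inner rings, all 7 rose at an adjusted p under 0.05. By the 2-fold rule 2 were called in control and 4 in Cd offspring, and the median log2 fold change was 0.90 and 1.01. Psmb5, the subunit with the chymotrypsin-like site, rose most in control cells, from 19.5 and 20.1 to 44.5 and 46.9 RPKM, a log2 fold change of 1.20 (SE 0.054, limma adjusted p = 1.54e-06). In Cd offspring it went from 22.5 and 21.5 to 45.7 and 47.3 RPKM, a log2 fold change of 1.07 (adjusted p = 2.59e-06). The other constitutive catalytic subunits rose somewhat less. Psmb6, with the caspase-like site, went from 57.5 and 56.7 to 97.7 and 99.0 RPKM in control and from 56.5 and 49.5 to 99.0 and 100.5 RPKM in Cd offspring, log2 fold changes of 0.78 and 0.91. Psmb7, with the trypsin-like site, went from 65.6 and 65.0 to 127 and 121 RPKM in control and from 59.6 and 60.6 to 124 and 119 RPKM in Cd offspring. For each of the 3, every stimulated library was above every unstimulated one.

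Psmb1, a beta subunit without a cutting site, was the highest constitutive core subunit in all 4 unstimulated libraries and moved least. Its levels were 122 and 113 RPKM in unstimulated and 133 and 134 RPKM in stimulated control cells, and 110 and 119 against 132 and 134 RPKM in Cd offspring. The log2 fold changes were 0.19 (limma adjusted p = 0.0218) and 0.22 (adjusted p = 0.00980). The call in control cells was lost without Ctr_Unstim replicate 7, without either stimulated control library, with median-of-ratios scaling (0.11, adjusted p = 0.176) and with no trend in the fit. The call in Cd offspring was lost without Cd_Stim replicate 7 and with quantile normalization (0.15, adjusted p = 0.0569).

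The immunoproteasome subunits went the other way. Psmb10 fell most, from 59.2 and 55.2 RPKM at rest to 29.6 and 31.9 RPKM after stimulation in control cells, and from 58.0 and 56.1 to 27.6 and 31.8 RPKM in Cd offspring. The groups did not overlap, and the log2 fold changes were -0.89 (SE 0.078, limma adjusted p = 3.88e-05) and -0.94 (adjusted p = 3.01e-05). Psmb9 went from 101 and 90.2 to 63.9 and 71.5 RPKM in controls and from 91.9 and 92.4 to 53.3 and 69.1 RPKM in Cd offspring, log2 fold changes of -0.50 (SE 0.12, adjusted p = 0.00796) and -0.60 (adjusted p = 0.00320 by limma). Psmb8, the highest of the 6 catalytic subunits in all 8 libraries, went from 177 and 177 to 138 and 155 RPKM in control and from 171 and 167 to 130 and 145 RPKM in Cd offspring. Its fall was the smallest of the 3, with log2 fold changes of -0.27 (SE 0.073, adjusted p = 0.0124) and -0.30 (adjusted p = 0.00838 by limma). The Psmb10 call held in all alternatives tried. The Psmb8 call was lost in control offspring without Ctr_Stim replicate 6 (-0.19, adjusted p = 0.0846) and in Cd offspring without Cd_Stim replicate 6 (-0.22, adjusted p = 0.0628). The Psmb9 call in control offspring was lost without Ctr_Unstim replicate 6 (-0.42, adjusted p = 0.0540) or without Ctr_Stim replicate 6 (-0.42, adjusted p = 0.0527).

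**Figure D2:**
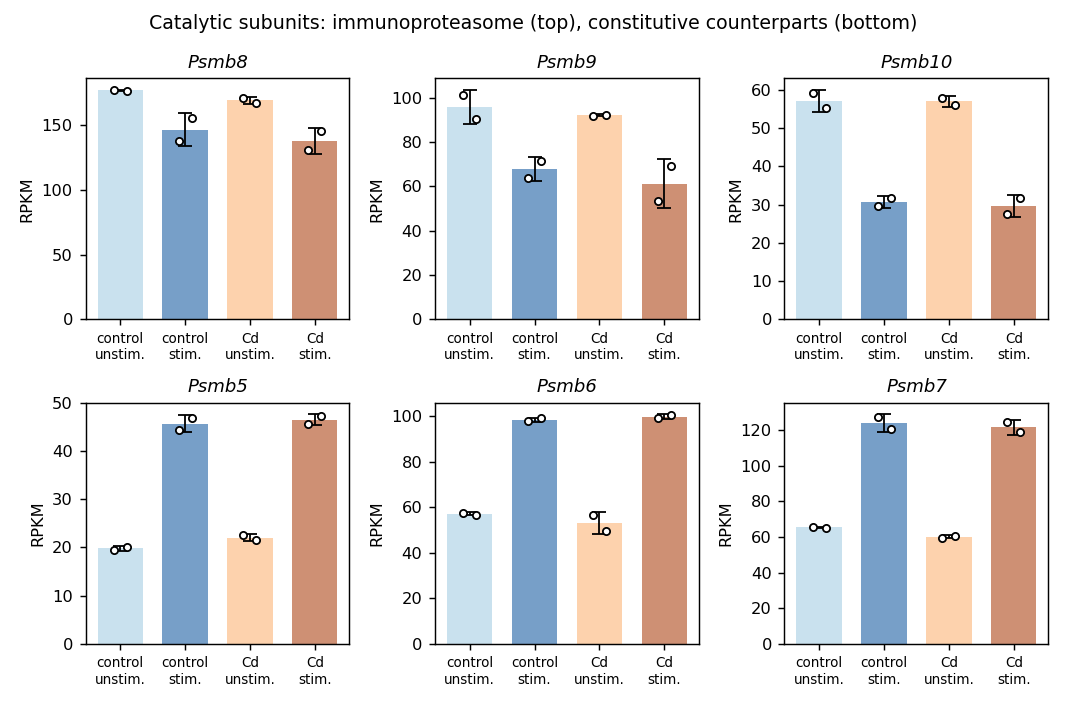
RPKM of the 6 catalytic subunits in the 4 groups, with the immunoproteasome subunits in the upper row above the constitutive subunit each replaces. Bars are means of 2 libraries, error bars are the SD, and circles are the libraries. In each panel the stimulated and unstimulated libraries are apart, downwards in the upper row and upwards in the lower row.

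Set against its constitutive counterpart, each immunoproteasome subunit lost ground on stimulation. The ratio of Psmb8 to Psmb5 in RPKM went from 9.09 and 8.79 to 3.10 and 3.31 in control cells, and from 7.59 and 7.77 to 2.85 and 3.07 in Cd offspring. The ratio of Psmb9 to Psmb6 went from 1.76 and 1.59 to 0.655 and 0.722 in control and from 1.63 and 1.87 to 0.538 and 0.687 in Cd offspring, so the order of this pair turned over. The ratio of Psmb10 to Psmb7 went from 0.902 and 0.848 to 0.232 and 0.264 in control and from 0.974 and 0.925 to 0.222 and 0.268 in Cd offspring. All 3 ratios were lower in every stimulated library than in any unstimulated one. Summed over the 6 subunits, the immunoproteasome part went from 70.3% and 69.4% to 46.2% and 49.3% in control cells, and from 69.8% and 70.6% to 44.0% and 48.0% in Cd offspring. With 2 libraries a group, the exact two-sided permutation test of such a share or ratio gave p = 0.333, the smallest it can give. Psmb5, Psmb6 and Psmb7 have pseudogene copies in RefSeq, and how reads with several hits were counted is not given. Where the ratios stand against 1, and the size of the share, are therefore uncertain.

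Both sides of the share moved, as levels relative to all reads counted in a library. Amounts per cell were not measured. The summed level of Psmb8, Psmb9 and Psmb10 went from 330 ± 11.0 to 245 ± 19.5 RPKM (SD, n = 2) in control offspring and from 318 ± 3.68 to 229 ± 24.5 RPKM in Cd offspring. That of Psmb5, Psmb6 and Psmb7 went from 142 ± 0.581 to 268 ± 2.19 RPKM in control and from 135 ± 4.92 to 268 ± 1.84 RPKM in Cd offspring. The replicates of stimulated cells were further apart for the immunoproteasome than for the constitutive subunits, and in both kinds of offspring the library numbered 7 was the higher of the pair.

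**Figure D3:**
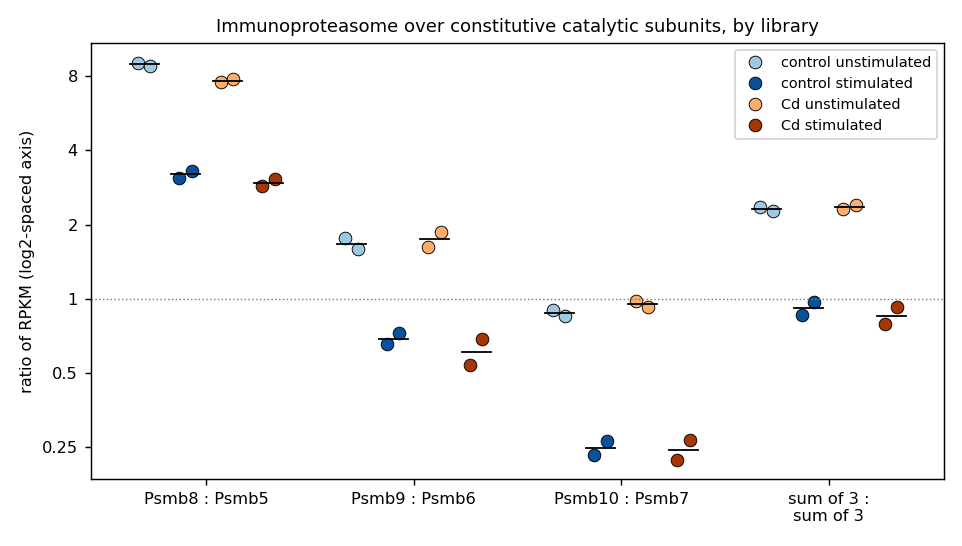
Ratio of RPKM of each immunoproteasome subunit to its constitutive counterpart, and of the sums of 3, in each of the 8 libraries (circles) with the geometric mean of a group (line), on a log2-spaced axis. The stimulated libraries lie below the unstimulated ones in all 4 ratios, and the ratio of the sums passes from above to below 1. The levels of Psmb5, Psmb6 and Psmb7 are uncertain, since they have pseudogene copies in RefSeq.

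Psmb8 and Psmb9 lie near each other in the MHC class II region of chromosome 17, each next to a gene of the peptide transporter TAP. On GRCm38.p6, Psmb9 spans chr17:34182030-34187330 and Psmb8 spans chr17:34198195-34201454, with Tap1 between them and Tap2 beyond Psmb8. Psmb9 and Tap1 are transcribed away from each other, and 226 bases separate their annotated starts. Tap1, on the other side of that stretch, did not pass at an adjusted p under 0.05 in either kind of offspring. It stood at 89.8 and 85.3 RPKM in unstimulated and 87.7 and 97.9 RPKM in stimulated control cells. In Cd offspring it stood at 89.6 and 79.4 against 70.5 and 92.4 RPKM. The groups overlapped in both, with log2 fold changes of 0.08 (95% interval -0.21 to 0.38, limma adjusted p = 0.590) and -0.06 (-0.36 to 0.23, adjusted p = 0.679). Over the stimulated libraries, the order of the Tap1 levels was that of the Psmb9 levels. Psmb10 lies on another chromosome, at chr8:105935728-105938392, and Psmb5, at chr14:54614120-54617995.

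The 250 bases before the annotated start of the 3 immunoproteasome genes and of Psmb5 are shown, because these genes of one function moved in opposite directions. They are from RefSeq on GRCm38.p6, 5′ to 3′ on the strand of the gene, in the order Psmb8 (plus strand, chr17:34197945-34198194), Psmb9 (minus strand, chr17:34187331-34187580, whose first 25 bases fall in Tap1), Psmb10 (minus strand, chr8:105938393-105938642) and Psmb5 (minus strand, chr14:54617996-54618245). Capitals mark matches to the motifs searched.
Psmb8: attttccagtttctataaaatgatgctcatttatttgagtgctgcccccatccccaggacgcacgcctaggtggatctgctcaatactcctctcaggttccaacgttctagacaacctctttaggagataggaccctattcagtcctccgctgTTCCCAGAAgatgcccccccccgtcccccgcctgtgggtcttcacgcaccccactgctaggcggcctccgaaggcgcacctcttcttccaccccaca
Psmb9: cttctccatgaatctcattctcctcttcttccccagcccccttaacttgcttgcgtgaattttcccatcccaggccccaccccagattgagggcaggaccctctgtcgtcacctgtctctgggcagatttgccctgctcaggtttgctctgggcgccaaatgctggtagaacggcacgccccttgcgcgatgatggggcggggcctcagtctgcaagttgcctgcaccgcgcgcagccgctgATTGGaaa
Psmb10: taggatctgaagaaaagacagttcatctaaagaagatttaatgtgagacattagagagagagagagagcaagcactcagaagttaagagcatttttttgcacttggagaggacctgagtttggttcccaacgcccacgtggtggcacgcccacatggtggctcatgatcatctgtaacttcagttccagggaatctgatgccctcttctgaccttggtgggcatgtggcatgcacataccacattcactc
Psmb5: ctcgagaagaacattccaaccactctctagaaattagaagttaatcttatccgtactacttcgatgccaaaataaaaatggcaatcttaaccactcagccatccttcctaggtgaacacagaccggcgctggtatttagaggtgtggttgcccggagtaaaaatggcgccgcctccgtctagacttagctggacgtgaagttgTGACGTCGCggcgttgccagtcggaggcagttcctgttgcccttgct

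Both strands were searched for 4 motifs: the antioxidant response element TGACNNNGC, bound by factors that include Nfe2l1, the CCAAT box, the core of an interferon-stimulated response element TTCNNTTTC and a STAT site TTCNNNGAA. No 2 matches overlap in the windows shown. Psmb8 held a STAT site match, TTCCCAGAA, 97 to 89 bases before the start. Psmb9 held a CCAAT box on the other strand, 8 to 4 bases before the start, Psmb5 held TGACGTCGC 47 to 39 bases before it, and Psmb10 held no match. Of the 48 proteasome genes, 40 had a window in the table used. The response element of Nfe2l1 was in 12.5% of these 40 and in 11.5% of the 27025 genes with a window, the CCAAT box in 35% and 37.5%, the interferon element in 7.5% and 8.18%, and the STAT site in 5% and 8.13%. Among the 34 core, cap and assembly genes with a window that rose at an adjusted p under 0.05 in both kinds of offspring, 5 held the response element (14.7%) and 12 the CCAAT box (35.3%). These are matches of letters in a short window, not sites shown to be bound.

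The 19S cap, which binds ubiquitin and unfolds substrates, was represented by all 6 ATPases and 11 other subunits, and all 17 rose at an adjusted p under 0.05 in both kinds of offspring. By the 2-fold rule 3 ATPases and 7 of the others were called in each, with a median log2 fold change over the 17 of 1.03 in control and 1.05 in Cd offspring. The ATPases moved within a narrow band. Psmc5 rose most in control cells, from 51.4 and 49.9 to 114 and 114 RPKM, and stood at 50.4 and 55.6 against 110 and 111 RPKM in Cd offspring, log2 fold changes of 1.17 (SE 0.055, limma adjusted p = 1.89e-06) and 1.06 (adjusted p = 3.05e-06). Psmc3 rose least, from 67.0 and 62.2 to 105 and 101 RPKM in control and from 63.9 and 64.8 to 103 and 101 RPKM in Cd offspring, log2 fold changes of 0.67 and 0.66.

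The other cap subunits spread more widely. Psmd1, a large scaffold subunit, rose from 26.5 and 27.5 to 83.9 and 82.6 RPKM in control and from 27.3 and 27.1 to 79.9 and 84.3 RPKM in Cd offspring, log2 fold changes of 1.62 (SE 0.048, limma adjusted p = 3.90e-07) and 1.59. Psmd7 had 1.54 and 1.64, and Psmd11 had 1.39 and 1.28. Psmd14 and Psmd4, which act on ubiquitin, differed from each other. Psmd14, the enzyme that cuts ubiquitin off the substrate, rose by 1.13 and 1.07 on the log2 scale. Psmd4, a ubiquitin receptor, stood at 84.4 and 79.7 RPKM in unstimulated and 95.2 and 99.5 RPKM in stimulated control cells, and at 82.0 and 73.3 against 97.5 and 101 RPKM in Cd offspring. It was the highest cap subunit at rest and had the lowest log2 fold changes of the cap, 0.25 (adjusted p = 0.0116) and 0.35 (adjusted p = 0.00200 by limma), and the call in control cells was lost without Ctr_Unstim replicate 7 or without Ctr_Stim replicate 7 (adjusted p = 0.0694 and 0.0691).

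Stimulation brought the levels of the cap subunits closer together. At rest the 17 spanned 26.5 to 84.4 RPKM over the 4 libraries, and the SD of their log2 levels was 0.41 to 0.43 in each library. After stimulation they spanned 62.5 to 116 RPKM, with an SD of 0.28 to 0.29. Psmd4 was the highest of the cap at rest and rose least, and the part of this 1 gene in the narrowing was not tested. The 14 core subunits had an SD of 1.08 to 1.17 at rest and 0.95 to 0.98 after stimulation, and the highest was 15.3 to 19.2 times the lowest at rest and 8.00 to 9.08 times after stimulation. In the core this rested on Psma5, without which the SD was 0.77 to 0.82 at rest and 0.77 to 0.80 after stimulation. Psma5, Psmb5, Psmb6 and Psmb7 have pseudogene copies in RefSeq that the deposited table does not list, and how reads that align to several places were counted is not given in the sources used here, so the levels of these 4 genes are uncertain.

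**Figure D4:**
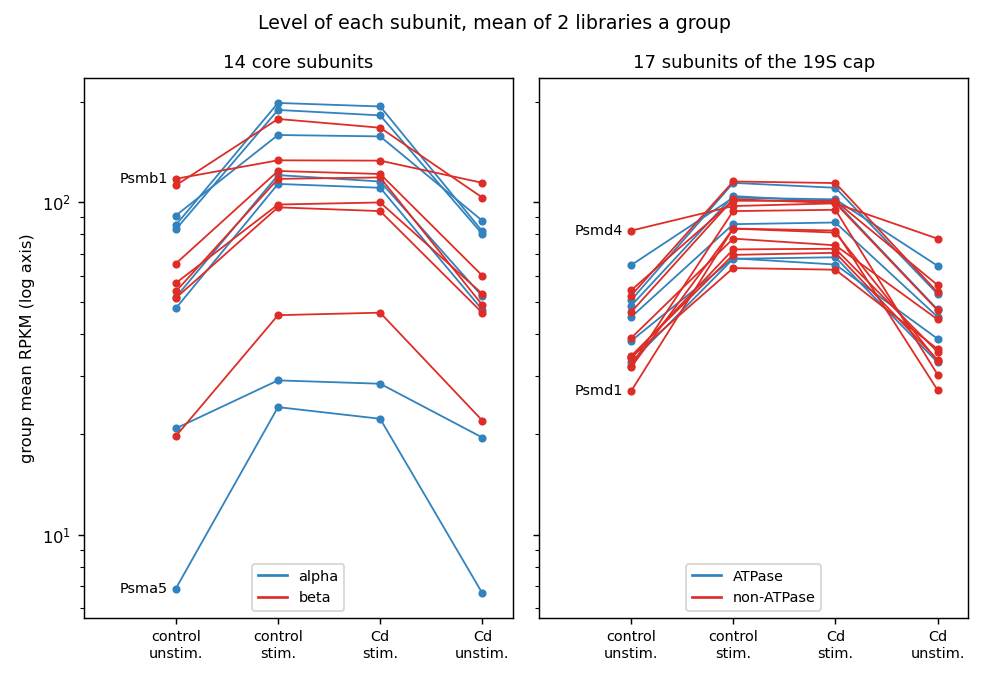
Group mean RPKM (log axis, 2 libraries each) of the 14 core and 17 cap subunits, 1 line a gene, with the stimulated groups in the middle and the unstimulated ones outside. The highest and the lowest subunit at rest in control cells are named. The cap lines draw together after stimulation, and Psma5 lies below all others.

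The caps of the other kind, Psme1 to Psme4, all rose at an adjusted p under 0.05 in both kinds of offspring. Psme1 and Psme2 form the cap that is known to pair with the immunoproteasome and to be induced by interferon, and both rose, opposite in direction to the immunoproteasome subunits. Psme1 was the highest of the proteasome genes in all 8 libraries, at 204 and 196 RPKM in unstimulated and 338 and 346 RPKM in stimulated control cells and at 176 and 188 against 328 and 347 RPKM in Cd offspring, log2 fold changes of 0.77 (SE 0.057, limma adjusted p = 1.51e-05) and 0.89. Psme2 was far lower, at 21.9 and 19.1 against 44.8 and 51.2 RPKM in control and 15.8 and 17.6 against 45.7 and 49.6 RPKM in Cd offspring, log2 fold changes of 1.22 and 1.51 (SE 0.098). RefSeq lists a gene close in sequence, Psme2b, that is not in the deposited table, so the level of Psme2 is uncertain. Psme3, a nuclear cap that acts without ubiquitin, rose from 54.6 and 51.0 to 182 and 180 RPKM in control and from 56.0 and 54.4 to 173 and 182 RPKM in Cd offspring. The rise in control cells, 1.78 on the log2 scale (SE 0.052, adjusted p = 3.77e-07), was second to that of Psma5 among the 46 genes, and the rise in Cd offspring was 1.68. Psme4, a large single-chain cap, rose from 19.3 and 19.4 to 33.5 and 31.9 RPKM in control and from 19.6 and 21.2 to 32.2 and 30.6 RPKM in Cd offspring, log2 fold changes of 0.75 (limma adjusted p = 2.60e-05) and 0.62 (adjusted p = 7.33e-05). Psmf1, an inhibitor of the core, stayed at 11.9 to 14.5 RPKM in all 8 libraries, with log2 fold changes of 0.09 (adjusted p = 0.261) and 0.22 (adjusted p = 0.0192 by limma), and the call in Cd offspring was lost without Cd_Unstim replicate 7, without either stimulated Cd library (adjusted p = 0.0657 to 0.0948) and with quantile normalization (adjusted p = 0.204).

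The assembly factors fell into those of the core and those of the cap. The 4 chaperones of the core, Psmg1 to Psmg4, rose in both kinds of offspring, with log2 fold changes of 0.996, 1.06, 1.5 and 1.07 in control cells, and of 1.04, 1.10, 1.53 and 1.15 in those of Cd offspring. Psmg3 rose most, from 6.10 and 7.53 to 19.3 and 19.3 RPKM in control and from 6.57 and 6.38 to 18.3 and 19.6 RPKM in Cd offspring. The chaperones of the cap moved less. Psmd5 did not pass, at 25.0 and 27.8 against 27.7 and 25.7 RPKM in control and 26.2 and 26.2 against 26.7 and 25.9 RPKM in Cd offspring, with overlapping groups and log2 fold changes of 0.02 (95% interval -0.14 to 0.17, limma adjusted p = 0.848) and 0.00 (-0.15 to 0.16). Psmd10 had 0.38 (adjusted p = 0.00341) and 0.26 (adjusted p = 0.0203), and Psmd9 had 0.29 (adjusted p = 0.0327) and 0.47 (adjusted p = 0.00367 by limma). The control call of Psmd9 and the Cd call of Psmd10 were lost in 8 and 5 of the 16 alternatives, among them median-of-ratios scaling and quantile normalization.

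Genes around the proteasome were read from lists of partners, regulators, the ubiquitin system and peptide loading. Their counts are to be read against the shares of all genes given above, 11.5% higher by the 2-fold rule in control and 11.4% in Cd offspring, and, of any size at the 0.05 level, 36.9% up with 27.8% down in control and 36.5% with 29.4% in Cd offspring. Of 9 proteasome partners tested, 3 rose in control cells by the 2-fold rule, the deubiquitinases Uchl5 (log2 fold change 1.03) and Usp14 (1.23) and the cap partner Txnl1 (1.30), and at an adjusted p under 0.05, 7 rose and 1 fell. In Cd offspring the same 3 rose by the 2-fold rule, and 6 rose and 1 fell at an adjusted p under 0.05. The one that fell in both was Akirin2 (-0.32 and -0.24), known for bringing the proteasome into the nucleus, named after its value was seen. Pomp, which completes the core, stood at 74.2 and 68.0 against 138 and 134 RPKM in control and 65.2 and 67.2 against 128 and 125 RPKM in Cd offspring, log2 fold changes of 0.93 in both. Of 12 regulators of proteasome genes, 4 rose and 4 fell in control cells at an adjusted p under 0.05, and 2 rose and 6 fell in Cd offspring. Nfe2l1, the factor that drives proteasome genes when proteolysis falls short, rose from 22.1 and 22.2 to 31.7 and 30.4 RPKM in control cells (log2 fold change 0.49, limma adjusted p = 9.37e-05) and by 0.50 in Cd offspring. Ngly1, the enzyme that strips sugars from Nfe2l1, fell from 28.0 and 25.5 to 13.5 and 12.6 RPKM (-1.03, adjusted p = 4.24e-05), and by 1.09 on the log2 scale in Cd offspring. Irf1, a factor known for inducing immunoproteasome genes, did not pass, at 98.0 and 90.3 against 87.1 and 101 RPKM in control and 104 and 85.6 against 62.5 and 91.5 RPKM in Cd offspring (-0.01, adjusted p = 0.974, and -0.32, adjusted p = 0.148).

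Among 18 tested genes of ubiquitin and substrate delivery, 9 rose and 5 fell in control cells at an adjusted p under 0.05, and 12 rose and 3 fell in Cd offspring. By the 2-fold rule 2 rose and 1 fell in each. In control cells Uba6, a ubiquitin-activating enzyme (1.64), and Vcp, the segregase that hands unfolded proteins to the proteasome (1.05), rose, and Zfand2a, a stress-induced partner of the cap, fell by 2.10 on the log2 scale. Among 11 genes of peptide loading onto MHC class I, 4 rose and 5 fell in control cells at an adjusted p under 0.05, and 3 rose and 5 fell in Cd offspring. By the 2-fold rule only the chaperone Canx was called in control cells (1.18). The 5 that fell in control cells, named after their values were seen, were Tap2 (-0.39), Tapbpl (-0.48), B2m (-0.57), H2-K1 (-0.71) and H2-D1 (-0.84), the last 3 being the chains of the MHC class I molecules themselves.

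The second question was whether prenatal Cd moved the set. In unstimulated cells none of the 46 genes was called for Cd (limma, adjusted p under 0.05), against 0.135% of all genes higher and 0.762% lower. In stimulated cells none was called either, and 0% of all genes were. In unstimulated cells 8 of the 46 had an unadjusted p under 0.05, 6 lower and 2 higher, against 13.9% of all genes. By limma voom on the recovered reads 3 had one, and the share of all genes by voom is not given here. In stimulated cells none had an unadjusted p under 0.05 by either tool, against 3.28% of all genes in the main fit. The libraries of the Cd and control groups did not overlap for 19 of the 46 in unstimulated cells, with Cd higher for 4 (22.3% of all genes) and lower for 15 (20% of all genes). In stimulated cells Cd was higher for 2 (16%) and lower for 10 (20.6%).

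The gene with the smallest p in unstimulated cells was Psmd6, a cap subunit. It stood at 39.1 and 38.8 RPKM in control and 43.9 and 44.8 RPKM in Cd offspring, a log2 fold change of 0.19 (SE 0.046, limma adjusted p = 0.155). Psme2 stood at 21.9 and 19.1 against 15.8 and 17.6 RPKM, a log2 fold change of -0.29 (SE 0.098, adjusted p = 0.270), and Psmb3 at 50.0 and 52.9 against 46.1 and 46.8 RPKM, a log2 fold change of -0.15 (adjusted p = 0.277). The groups did not overlap for these 3 genes, and none passed. In stimulated cells the smallest p values belonged to Psmb4 (log2 fold change -0.09), Psmd6 (-0.07) and Psmc1 (-0.06), each with an adjusted p of 1.0 by limma. Psmb8, Psmb9 and Psmb10 had log2 fold changes of -0.06, -0.05 and 0.00 at rest and of -0.09, -0.16 and -0.05 after stimulation.

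The 95% intervals bound what these libraries leave room for. In unstimulated cells the intervals of the 46 genes ran from -0.52 to 0.30 on the log2 scale, a Cd level between 0.696 and 1.23 times that of the controls. In stimulated cells they ran from -0.44 to 0.38, between 0.738 and 1.30 times. In both states the interval of each of the 46 genes lay within 1.5-fold. These intervals are per gene and not adjusted for their number, and a difference that did not pass is not shown to be absent.

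**Figure D5:**
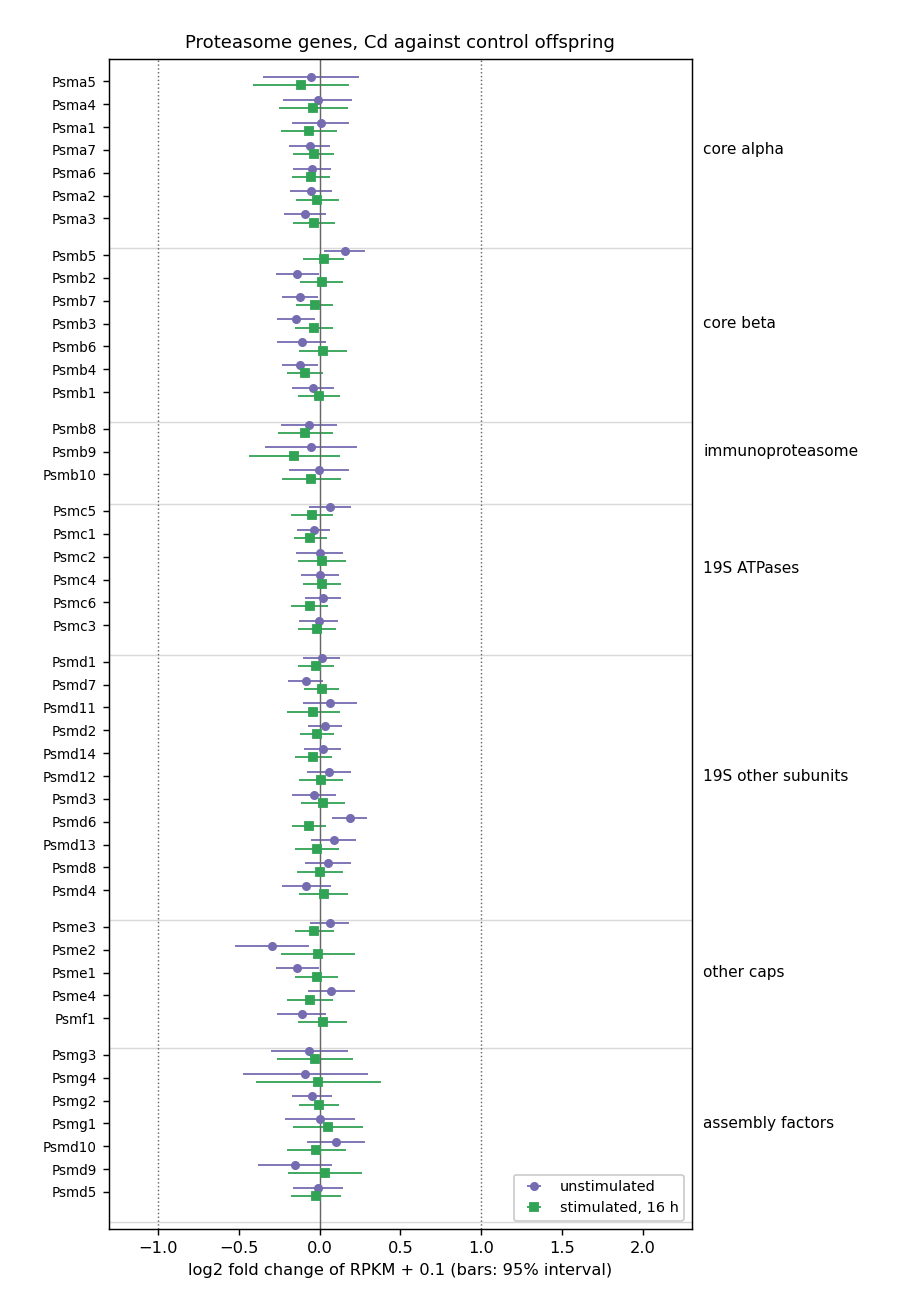
Log2 fold change of RPKM + 0.1 between Cd and control offspring for the 46 tested proteasome genes, in unstimulated (circles) and stimulated cells (squares), with 95% intervals from limma, on the same axis range as the plot of the stimulation response. The points lie within 0.3 of 0.

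The response to stimulation was also set against exposure, as the difference between the log2 fold changes in Cd and control offspring. None of the 46 genes was called (limma adjusted p under 0.05), against 0.301% of all genes higher and 0.0555% lower, and 1 had an unadjusted p under 0.05, against 10.6% of all genes. By voom on the recovered reads the count of proteasome genes was 1 as well, with no share of all genes by voom given here. The smallest p values were those of Psmd6 (-0.25, SE 0.065, adjusted p = 0.234), Psme2 (0.29, adjusted p = 0.519) and Psmb2 (0.15, adjusted p = 0.542). For Psme2 the rise was 1.22 in control and 1.51 in Cd offspring.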

How the data were processed

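Per the labels and the study's methods, mRNA libraries were made with the KAPA mRNA HyperPrep kit, aligned to mm10 with subread and counted on RefSeq transcripts with featureCounts. Versions, strand setting and the counting of reads with several hits are not given in the sources used here. The authors deposited 1 table on a log2 scale, log2(RPKM + 1) + 0.0001 for each of 27179 genes. The scale was read from the values, which were turned back to RPKM, so the test planned for RPKM was run on the back-transformed values. The size of the steps of low values gave whole reads (all libraries within 0.001 of a read of a whole number at 1 transcript length) for 17792 of 17794 genes above 0 in at least 2 libraries, and thus 15542732 to 25486791 reads a library, which set the precision of each level. The labels put each library in its group.

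The values log2(RPKM + 0.1) of 12605 genes with a mean of at least 0.5 RPKM entered a model of 4 group means with a trend (limma 3.58.1 in R 4.3.3), adjusted after Benjamini and Hochberg over all of them. The fit was tested on simulated data. Fold changes are on this scale. A paired fit was not the main one, because libraries with the same number did not deviate together (r from -0.041 to 0.064). Alternatives were a pseudocount of 1, no filter, a mean of at least 1 RPKM, median-of-ratios scaling, quantile normalization, no trend, a replicate block and each library left out. Limma voom on recovered reads was added after seeing the data.

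The members and lists were chosen with earlier results of these data known. Levels in each library are given for the catalytic subunits, Psme1, Psme2, the genes of each class that moved most and least on stimulation in control cells and the 3 with the smallest p for Cd. Of other lists, genes called on stimulation in controls were named, and Pomp, Nfe2l1, Tap1 and Irf1 in any case. Coordinates and sequences are from RefSeq on GRCm38.p6, with 49 of 49 members matched by gene ID. Of the 49, 13 (Psma4, Psmd1, Psme1 and also Psmc3ip among them) overlap another annotated gene, so reads may be shared. Python 3.11.15, numpy 2.4.6, pandas 2.3.3 and matplotlib 3.10.9 were used. A few single genes of the lists are not reported here.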

Additional observations from a re-analysis of the deposited data

How the results depend on the processing

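No proteasome gene was called for Cd in either state or for the difference in response under any alternative, voom included. By the 2-fold rule, the count for stimulation in Cd offspring was 14 with quantile normalization against 25, and no other total of calls moved by over 1.5 times. These are counts of proteasome genes, and the shares of all genes under the alternatives are not given here. By direction, the count that fell at an adjusted p under 0.05 in control offspring was 1 against 3 without Ctr_Stim replicate 6, and by the 2-fold rule 1 gene fell, Psmb10, against 0 with quantile normalization in both kinds of offspring and without Cd_Stim replicate 7 in Cd offspring. Leaving out each library in turn gave 20 to 23 genes in control and 23 to 25 in Cd offspring by the 2-fold rule, and 41 to 44 and 42 to 45 at an adjusted p under 0.05. There the lone library of a group is assumed to vary like the other groups. With the replicate block the counts were 22 and 25 by the 2-fold rule and 43 and 45 at an adjusted p under 0.05, and the 1 call lost was that of Psmd9 in control offspring (adjusted p = 0.0620). No fold change of a gene that was called turned its direction, and at an adjusted p under 0.05, 30 single calls of 7 genes were lost (Psmb1, Psmb8, Psmb9, Psmd4, Psmd9, Psmd10 and Psmf1). The cause was not tested. With 2 libraries a group, small Cd differences are beyond the reach of the design.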
